A study of Homo sapiens with 3 samples.

Results

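Androgen-induced genes outside the kallikrein family were compared between drug-resistant C4-2B sublines and their parental line. The list held 37 genes known to be switched on by androgen in prostate cells, with the kallikreins left out, and its members were found by their gene symbols in the annotation of the array. Of these, 34 were measured by at least 1 probe set annotated to them alone (101 probe sets in all), among 19775 genes measured in this way on the array. HERC3 was read by jointly annotated probe sets only, and ACSL3 and SORD were not analysed here. C4-2B, a prostate cancer cell line, descends from LNCaP cells and grows without testicular androgen. C4-2B MDVR cells are a subline kept in medium with 20 µM enzalutamide, which blocks the androgen receptor, C4-2B AbiR cells are a subline kept in 10 µM abiraterone acetate, which inhibits the androgen-synthesizing enzyme CYP17A1, and C4-2B parental cells were passaged alongside them. Each line was measured on 1 HG-U133 Plus 2.0 array, so there was no replicate error and no test, and drug in the medium, subline and array cannot be told apart.

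The androgen receptor is a transcription factor held by chaperones until it binds androgen. The loaded receptor then moves into the nucleus, binds DNA at androgen response elements, often together with the pioneer factor FOXA1, and recruits coactivators. In luminal prostate cells its induced genes include transporters, secreted proteins, metabolic enzymes and proteins that feed back on the receptor itself. Several of them, such as FKBP5 and TMPRSS2, are commonly read as measures of receptor output.

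The deposited values were log2 values centred for each probe set. A value therefore tells how an array stood relative to the centre of that probe set and carries no expression level, and a gene that is not expressed cannot be told from one that does not differ. For the same reason the prostate identity of the cells could not be checked from marker levels. Less RNA per cell cannot be told apart from fewer cells that express a gene. A value after ± is the SD over the probe sets of 1 gene. It is not a spread between cultures, and it can include differences between transcripts as well as technical error. Spiked bacterial controls (45 probe sets) gave a technical scale. Against parental, their log2 differences had an SD of 0.13 in MDVR (largest absolute difference 0.35) and 0.10 in AbiR (largest 0.20). Between MDVR and AbiR the SD was 0.12 and the largest was 0.34.

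Many of the androgen-induced genes were lower on the array of each resistant line than on the parental array, and none was 2-fold higher. In C4-2B MDVR, 14 of 34 genes (41.2%) were at least 2-fold lower and 0 were at least 2-fold higher, where 1.67% and 1.65% of all genes were. In C4-2B AbiR, 13 of 34 (38.2%) were at least 2-fold lower and 0 at least 2-fold higher, where 0.804% and 1.07% of all genes were. The median log2 difference of the 34 genes was −0.78 in MDVR and −0.63 in AbiR, beside medians of 0.044 and −0.011 over all genes. At 1.5-fold, 20 genes were lower in MDVR and 18 in AbiR, beside 5.15% and 2.52% of all genes, and 0 were higher in either line, beside 4.81% and 3.32%. Both comparisons used the same parental array, so their values are set side by side and not counted as separate evidence. A high reading on that array alone would lower a gene in both.

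**Figure D1:**
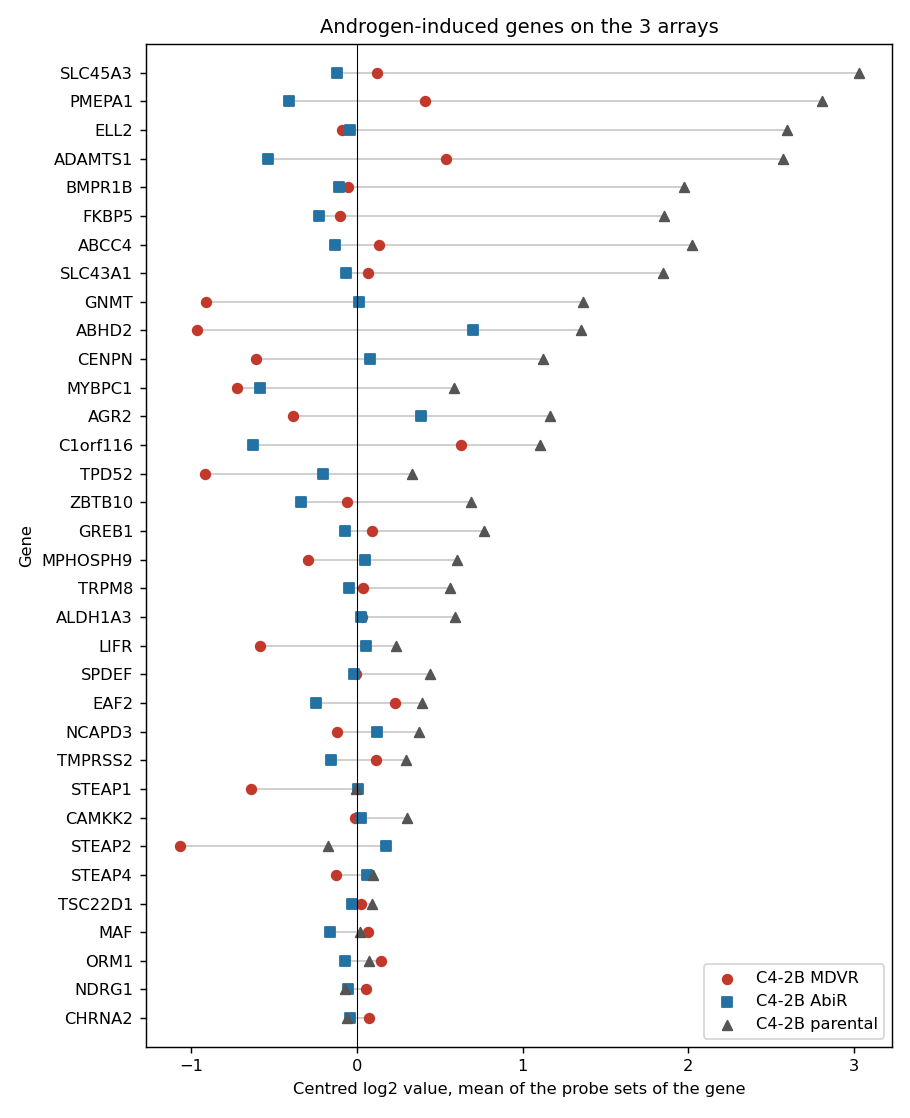
Centred log2 values (x axis, mean of the probe sets of a gene) of the 34 measured genes (y axis, ordered by their mean difference from parental) on the C4-2B MDVR (circles), C4-2B AbiR (squares) and C4-2B parental (triangles) arrays, 1 array per line. SLC45A3, in the top row, lies at 0.12 in MDVR, −0.12 in AbiR and 3.03 in parental cells, while the 3 values of NDRG1 and CHRNA2, in the bottom rows, lie close together.

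Among membrane proteins and transporters, 3 of 6 stood at least 2-fold below parental in MDVR and 3 of 6 in AbiR, beside 1.67% and 0.804% of all genes. SLC45A3, the prostate-specific membrane protein also called prostein, had centred values of 0.12 in MDVR and −0.12 in AbiR, against 3.03 in parental cells. Over its 2 probe sets it stood 7.50-fold below parental in MDVR (log2 difference −2.91 ± 0.72) and 8.86-fold below in AbiR (−3.15 ± 0.35), at ranks 21 and 13 from the lowest of all genes. Both resistant lines thus lay far below the parental array and near each other. ABCC4, a pump that exports cyclic nucleotides and prostaglandins, had values of 0.13 in MDVR and −0.13 in AbiR, against 2.02 in parental cells, and differences of −1.89 ± 1.02 and −2.15 ± 1.15 over 4 probe sets. In each line 3 of them read between −2.75 and −1.94, and the other was at −0.45 in MDVR and −0.42 in AbiR. The amino acid transporter SLC43A1 had a single probe set at 0.067 in MDVR and −0.067 in AbiR, against 1.85 in parental cells, which gave differences of −1.78 and −1.91.

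The remaining 3 genes of this group had smaller mean differences. For TRPM8, the cold- and menthol-sensing calcium channel, 1 probe set was at −1.15 in MDVR and −1.14 in AbiR, while the other was at 0.094 and −0.082, so that its means of −0.53 and −0.61 describe neither. TMPRSS2, the transmembrane serine protease whose promoter is fused to ERG in many prostate cancers, had values of 0.11 in MDVR and −0.15 in AbiR, against 0.29 in parental cells. Its differences were −0.18 ± 0.11 and −0.45 ± 0.12, with all 4 probe sets below 0 in each line. The MDVR value lay within the range of the spiked controls and the AbiR value outside it. The nicotinic receptor subunit CHRNA2 was at 0.14 and 0.020 by its single probe set.

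Among genes of signalling and receptor regulation, 4 of 7 measured stood at least 2-fold below parental in MDVR, and 4 of 7 in AbiR, where 1.67% and 0.804% of all genes did. FKBP5, a co-chaperone of HSP90 in steroid receptor complexes, had centred values of −0.10 in MDVR and −0.23 in AbiR, against 1.85 in parental cells. Its 3 probe sets lay close together, between −2.12 and −1.86 in MDVR and between −2.24 and −1.97 in AbiR. PMEPA1, a membrane protein that restrains TGF-beta signalling, had values of 0.41 in MDVR and −0.41 in AbiR, against 2.80 in parental cells. Its 3 probe sets gave a mean 5.26-fold lower in MDVR (−2.39 ± 1.03) and 9.28-fold lower in AbiR (−3.21 ± 0.83). ADAMTS1, a secreted metalloprotease, had values of 0.54 in MDVR and −0.54 in AbiR, against 2.57 in parental cells, with 2 probe sets that put it 4.09-fold lower in MDVR (−2.03 ± 0.27) and 8.62-fold lower in AbiR (−3.11 ± 0.22).

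BMPR1B, a type I receptor for bone morphogenetic proteins, had values of −0.052 in MDVR and −0.11 in AbiR, against 1.97 in parental cells. Its mean differences of −2.03 ± 2.20 and −2.08 ± 1.97 rested on 1 of 3 probe sets, which was at −4.57 in MDVR and −4.35 in AbiR. The others gave −0.76 and −0.74 in MDVR, and −1.04 and −0.86 in AbiR. When the median of the probe sets was taken on each array, BMPR1B was at −0.79 in MDVR and −0.86 in AbiR and no longer 2-fold lower. LIFR, the receptor of leukemia inhibitory factor, was at −0.82 ± 0.60 in MDVR and −0.18 ± 0.20 in AbiR over 5 probe sets. In MDVR, 2 of these were at −1.54 and −1.35, where the same probe sets in AbiR were at 0.031 and −0.38. CAMKK2, a kinase that activates AMPK, was at −0.31 ± 0.31 and −0.28 ± 0.28 over 4 probe sets, the lowest of which was at −0.72 in MDVR and −0.63 in AbiR. The stress-responsive gene NDRG1 was at 0.12 and 0.016 by 1 probe set. The probe sets that read the ubiquitin ligase HERC3 were annotated jointly to HERC3 and PIGY-DT and cannot be assigned to either gene. They read −0.71 and −1.06 in MDVR, and −0.96 and −1.19 in AbiR.

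**Figure D2:**
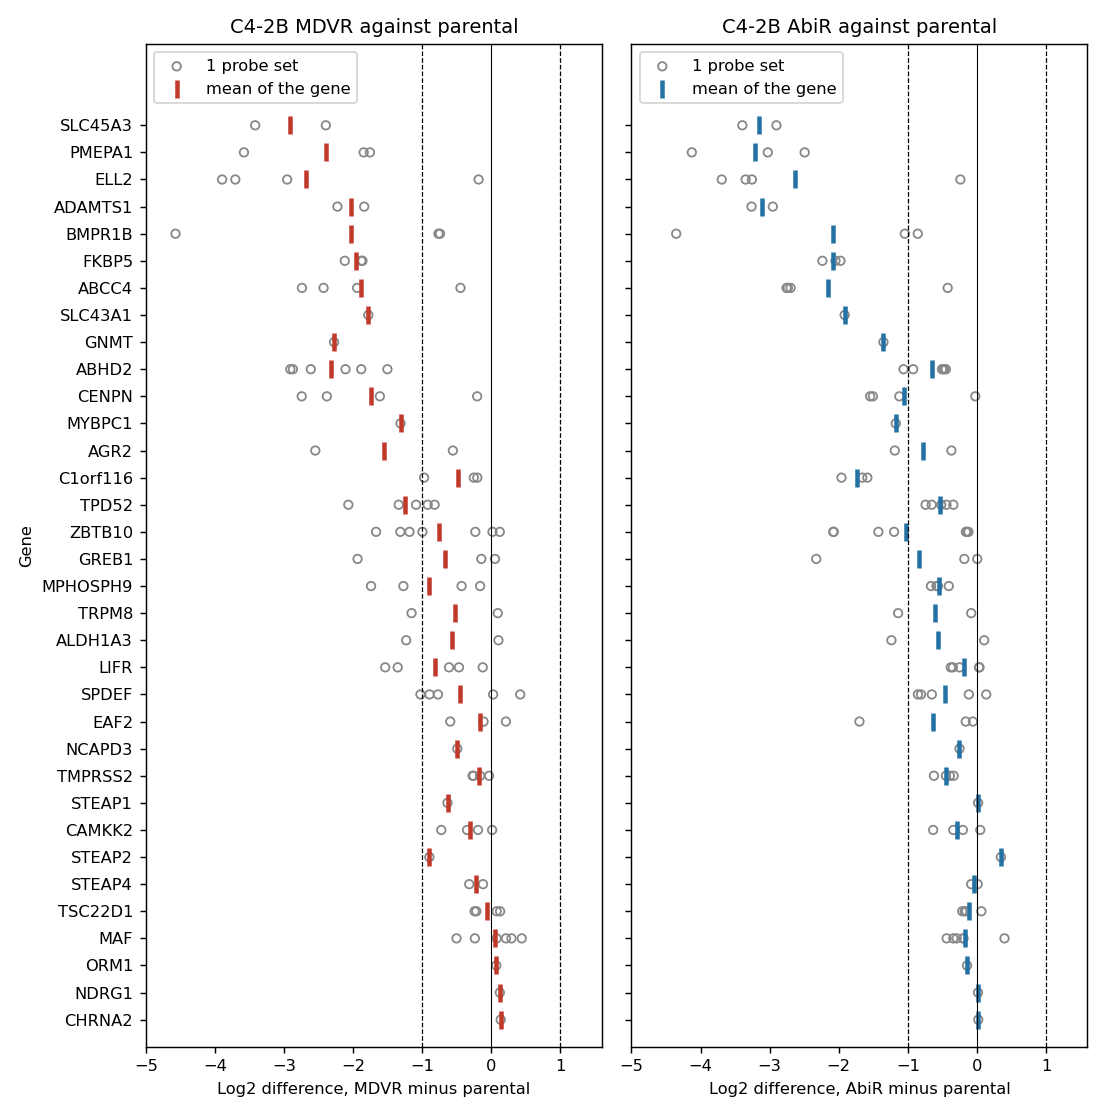
Log2 differences from the parental array (x axes) of each probe set (open circles) and of the mean of each gene (vertical bars) for the 34 genes (y axis), with C4-2B MDVR on the left, C4-2B AbiR on the right and dashed lines at 2-fold. The 3 circles of FKBP5 lie close together near −2, while those of BMPR1B spread between −4.57 and −0.74 in MDVR, and no circle lies above the upper 2-fold line.

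Among genes of transcription, 1 of 7 reached 2-fold lower in MDVR and 2 of 7 in AbiR, beside those same shares of all genes. ELL2, an elongation factor of RNA polymerase II, had centred values of −0.090 in MDVR and −0.039 in AbiR, against 2.59 in parental cells. Over 4 probe sets its mean was 6.43-fold lower in MDVR (−2.68 ± 1.72) and 6.21-fold lower in AbiR (−2.63 ± 1.61). Of its probe sets, 3 lay between −3.90 and −2.95 in MDVR and between −3.69 and −3.26 in AbiR, and the other was at −0.18 and −0.24. EAF2, which binds proteins of the ELL family, was at −0.16 ± 0.41 in MDVR and −0.64 ± 0.92 in AbiR, and 1 of its 3 probe sets was at −0.59 and −1.70. The others gave −0.11 and 0.21 in MDVR, and −0.16 and −0.058 in AbiR. With the median of the probe sets EAF2 turned to 0.061 in MDVR and was at −0.21 in AbiR. ZBTB10, a zinc finger transcription factor, had values of −0.060 in MDVR and −0.34 in AbiR, against 0.69 in parental cells. Its 7 probe sets fell into sets of 4 and 3. The 4 were all at least 2-fold lower in AbiR, at −2.08 to −1.20, and 3 of them in MDVR, the lowest at −1.67. The other 3 were at −0.23 to 0.12 in MDVR and −0.16 to −0.12 in AbiR. Over all 7, ZBTB10 was at −0.75 ± 0.71 and −1.03 ± 0.89, and without its probe sets that can cross-hybridize it was at −0.61 in AbiR, no longer 2-fold lower.

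GREB1, a coactivator of steroid receptors, was likewise read differently by its probe sets. One had values of 0.19 in MDVR and −0.19 in AbiR, against 2.13 in parental cells, which gave differences of −1.94 and −2.32. The other GREB1 probe sets gave −0.14 and 0.054 in MDVR, and −0.18 and 0.0051 in AbiR, so that the means were −0.68 ± 1.10 and −0.83 ± 1.29. SPDEF, an ETS factor of prostate epithelium, was at −0.45 ± 0.64 and −0.46 ± 0.44 over 5 probe sets, of which 3 were between −1.02 and −0.77 in MDVR and the others at 0.027 and 0.42. All 5 are of a class that can cross-hybridize. For TSC22D1, a leucine zipper protein, the differences were −0.063 ± 0.19 and −0.12 ± 0.13, and for the basic leucine zipper factor MAF they were 0.047 ± 0.35 and −0.18 ± 0.30, with probe sets on both sides of 0.

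Metabolic genes differed in how the resistant lines compared. ABHD2, a lipid hydrolase, had centred values of −0.96 in MDVR and 0.70 in AbiR, against 1.35 in parental cells. It was 4.97-fold lower in MDVR (−2.31 ± 0.57) and 1.57-fold lower in AbiR (−0.65 ± 0.27), and all 6 probe sets were at least 2-fold lower in MDVR but 1 in AbiR. GNMT, a methyltransferase that consumes S-adenosylmethionine, had values of −0.91 in MDVR and 0.011 in AbiR, against 1.36 in parental cells, by a single probe set, with differences of −2.28 and −1.35. ALDH1A3, which makes retinoic acid from retinaldehyde, was at −0.56 ± 0.94 in MDVR and −0.57 ± 0.95 in AbiR. Its probe sets disagreed in the same way in the 2 lines, with 1 at −1.23 and −1.24 and the other at 0.10 and 0.11.

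Genes of the STEAP family of membrane proteins included no 2-fold difference from parental cells. STEAP1 had values of −0.64 in MDVR and 0.0085 in AbiR, against −0.0085 in parental cells. STEAP2, its neighbour on chromosome 7, had values of −1.07 in MDVR and 0.17 in AbiR, against −0.17 in parental cells. The MDVR array was thus the low one for each, with differences from parental of −0.63 and −0.90, while the AbiR differences were 0.017 and 0.35. STEAP4 had differences of −0.22 ± 0.14 and −0.035 ± 0.066. STEAP1 and STEAP2 were read by 1 probe set each.

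Genes of secretion, trafficking and mitosis made up the rest of the list. CENPN, a centromere protein that recognizes CENP-A nucleosomes, had values of −0.61 in MDVR and 0.076 in AbiR, against 1.12 in parental cells, and differences of −1.74 ± 1.12 and −1.05 ± 0.71 over 4 probe sets, 1 of which was at −0.20 and −0.023. MYBPC1, a myosin binding protein of slow muscle, was at −0.73 in MDVR and −0.59 in AbiR, against 0.59 in parental cells, with differences of −1.31 and −1.17 by 1 probe set. AGR2, a disulfide isomerase of secretory cells, was at −1.55 ± 1.41 and −0.78 ± 0.58, and its 2 probe sets differed: −2.55 and −0.56 in MDVR, against −1.19 and −0.37 for the same probe sets in AbiR. TPD52, a vesicle trafficking protein, was at −1.25 ± 0.50 in MDVR and −0.54 ± 0.16 in AbiR, with all 5 probe sets below 0 in each line.

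C1orf116, also known as the specifically androgen-regulated gene, had values of 0.63 in MDVR and −0.63 in AbiR, against 1.11 in parental cells. The 3 probe sets averaged 1.39-fold lower in MDVR (−0.48 ± 0.43) and 3.33-fold lower in AbiR (−1.74 ± 0.20). MPHOSPH9, a phosphoprotein of mitotic cells, was at −0.90 ± 0.73 and −0.56 ± 0.11, and the condensin subunit NCAPD3 at −0.49 and −0.25. The acute-phase gene ORM1 was at 0.072 and −0.14 by 1 probe set. A further 2 probe sets annotated jointly to ORM1 and its near-identical paralog ORM2 gave −0.11 and −0.026 in MDVR, and −0.19 and −0.47 in AbiR, and cannot separate the paralogs.

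The direct comparison of C4-2B MDVR with C4-2B AbiR did not use the parental array. The median of the 34 genes was 0.057, beside 0.054 over all genes, and 2 genes were at least 2-fold lower and 2 at least 2-fold higher in MDVR, where 1.13% and 0.875% of all genes were. At 1.5-fold, 8 were lower and 3 higher, beside 3.96% and 2.77%. ABHD2 was lower in MDVR, with a log2 difference of −1.67 ± 0.81 and probe sets between −2.40 and −0.44, and STEAP2 was at −1.24. C1orf116 was higher in MDVR by 1.26 ± 0.24, with its probe sets between 0.99 and 1.41, and ADAMTS1 by 1.07 ± 0.056. PMEPA1 followed at 0.82 ± 0.39, and GNMT, AGR2 and TPD52 lay on the other side at −0.92, −0.77 ± 0.83 and −0.71 ± 0.43. Of the 34 genes, 21 differed between the resistant lines by no more than 0.34, the largest absolute difference of a spiked control. This was a smaller share than the 80.6% of all genes within that limit. Among the 21 were FKBP5 (0.13 ± 0.22), SLC45A3 (0.24 ± 0.37), ELL2 (−0.051 ± 0.36) and BMPR1B (0.058 ± 0.25). The mean of each was several fold lower than in parental cells, which for BMPR1B rested on 1 of 3 probe sets.

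**Figure D3:**
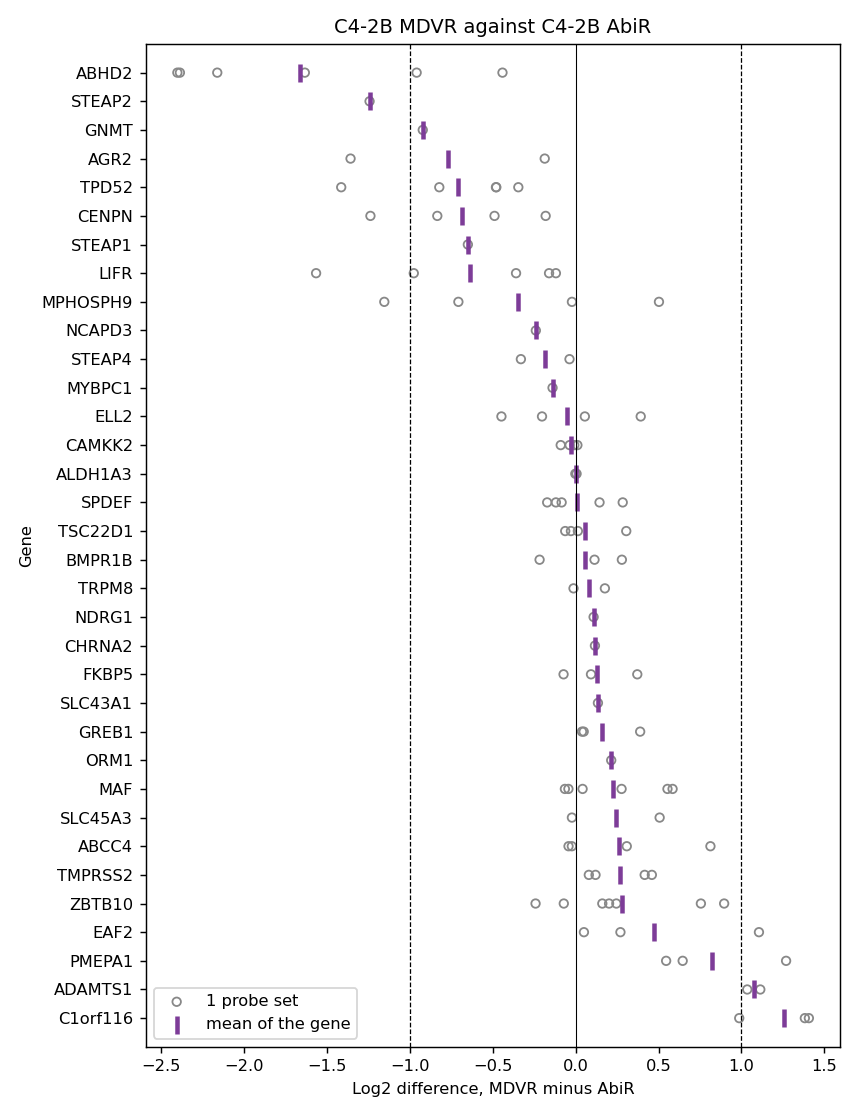
Log2 differences between the C4-2B MDVR and C4-2B AbiR arrays (x axis, MDVR minus AbiR) of each probe set (open circles) and of the mean of each gene (vertical bars) for the 34 genes (y axis, lowest on top), with dashed lines at 2-fold. ABHD2, at −1.67, and STEAP2, at −1.24, lie beyond the left line, and C1orf116, at 1.26, and ADAMTS1, at 1.07, beyond the right line.

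Probe sets of 1 gene can read different transcripts or lie outside the expressed one. Their disagreement was the widest measure of spread in the list, and it need not be technical alone. Of the 101 probe sets, 44 (43.6%) lay at or beyond 2-fold lower in MDVR, beside 2.57% of all 41097 probe sets. In AbiR 37 (36.6%) did, beside 1.12%. No probe set was 2-fold higher in either line. The lowest were at −4.57 and −4.35 and the highest at 0.44 and 0.40. The SD between probe sets exceeded 0.8 in MDVR minus parental for BMPR1B, ELL2, AGR2, CENPN, GREB1, PMEPA1, ABCC4, ALDH1A3 and TRPM8. Over all genes the pooled SD between probe sets was 0.35 in that comparison and 0.28 in AbiR minus parental.

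Promoter windows were searched for the hexamers of the androgen response element, which consists of AGAACA and TGTTCT with 3 bases between them. Windows of 250 bases before annotated start sites were taken from RefSeq (GRCh38.p14) for 28 of the 37 genes, 50 windows in all. Either hexamer, on either strand, was found in 5 of the 50 windows (10.0%), beside 12.4% of the 35116 windows of all genes, and the full element in 0 windows of these genes and 1 of all windows. The windows belonged to PMEPA1, MYBPC1, TRPM8, LIFR and TSC22D1. Of these genes, PMEPA1 and MYBPC1 were at least 2-fold lower in each resistant line. PMEPA1 held the hexamer in 1 of its 4 windows (chr20:57710578-57710827, minus strand, at position −229 from the start site) and MYBPC1 in its only window (chr12:101594721-101594970, plus strand, at position −192). The windows of these 2 genes are shown 5′ to 3′ because both genes were at least 2-fold lower on each resistant array, with the hexamer in capitals.
PMEPA1: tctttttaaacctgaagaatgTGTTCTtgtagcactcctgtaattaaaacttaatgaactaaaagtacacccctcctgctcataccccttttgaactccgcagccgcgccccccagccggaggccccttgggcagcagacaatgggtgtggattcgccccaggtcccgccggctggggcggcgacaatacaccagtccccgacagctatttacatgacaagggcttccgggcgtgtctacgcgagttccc
MYBPC1: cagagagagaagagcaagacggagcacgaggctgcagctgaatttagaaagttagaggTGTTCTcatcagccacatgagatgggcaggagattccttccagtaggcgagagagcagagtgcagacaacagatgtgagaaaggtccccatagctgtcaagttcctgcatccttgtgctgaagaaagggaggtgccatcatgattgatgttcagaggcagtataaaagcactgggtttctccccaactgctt
For the genes at least 2-fold lower on each resistant array, 2 of 16 windows (12.5%) held a hexamer, close to the share of all windows. A match does not show that the receptor binds there. The other genes of this set with windows, SLC45A3, FKBP5, BMPR1B, ABCC4, SLC43A1, GNMT and CENPN, held no hexamer in them. Only the 250 bases before each start site were searched, so sites elsewhere were not examined.

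The genes next to the members on their chromosomes did not share their low values for the most part. The 64 neighbouring genes that were measured had medians of 0.0028 in MDVR and −0.047 in AbiR. Of these, 1 reached 2-fold lower in each resistant line, beside 1.67% and 0.804% of all genes. That gene was CMC2, the neighbour of CENPN, at −1.47 and −1.01. On the other side of CENPN, ATMIN was at −0.47 and −0.33. ELK4, next to SLC45A3, was at −0.80 and −0.54, and PDLIM5, next to BMPR1B, at −0.68 and −0.62. Both are on the list of other androgen-response genes given below. Low neighbours not on that list included TIMM10, next to SLC43A1, at −0.69 and −0.39. SLC15A2, next to EAF2, was at −0.55 and −0.49, and SPIC, next to MYBPC1, at −0.56 and −0.21. The highest neighbour values were 0.51 in MDVR and 0.88 in AbiR. The neighbours of PMEPA1, ADAMTS1 and ABCC4 lay between −0.16 and 0.30 in the 2 lines. These neighbours were named after their values were seen.

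Other androgen-response genes were also lower at the median, by less. Of 79 such genes, written from general knowledge, 73 were measured, among them the kallikreins KLK2 to KLK4. In MDVR 14 lay 2-fold or more below parental and 1 above, beside 1.67% and 1.65% of all genes. In AbiR 12 lay below and 0 above, beside 0.804% and 1.07%, and the medians were −0.25 in each. KLK3, which encodes prostate-specific antigen, was lowest in MDVR at −4.07 (−3.17 in AbiR), and the guanylate cyclase subunit GUCY1A1 was lowest in AbiR at −4.09 (−1.95 in MDVR). HSD17B14, a hydroxysteroid dehydrogenase, was highest in MDVR at 1.02 (0.62 in AbiR).

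Genes repressed by androgen, 6 in number, were at medians of 0.056 in MDVR and 0.30 in AbiR, and did not share a direction. OPRK1 was at 1.63 in MDVR and 0.042 in AbiR, CAMK2N1 at 1.02 and 1.24, and MET at 0.36 and 0.56. BCHE was at −1.07 in MDVR and −0.78 in AbiR. UGT2B17 was at −1.49 in MDVR and 1.69 in AbiR and UGT2B15 at −0.25 and −0.072, and these near-identical genes can share signal. Of the receptor partners, 8 of 11 were measured, with medians of 0.060 in MDVR and 0.15 in AbiR. FOXA1 was at −0.63 in MDVR and 0.13 in AbiR, HOXB13 at 0.37 and 0.17, GATA2 at 0.19 and 0.23, and the glucocorticoid receptor gene NR3C1 at 0.13 and 0.089. Of the coactivators, NCOA1 was at −1.31 in MDVR and −0.47 in AbiR, NCOA2 at 0.22 and 0.21, EP300 at −0.27 and 0.24, and CREBBP at −0.0077 and 0.096. Glucocorticoid-induced genes, 7 measured, had medians of −0.17 and 0.030. Besides FKBP5, ZBTB16 was lower (−3.17 and −3.05), whereas TSC22D3 was at 0.45 in MDVR and 0.26 in AbiR, SGK1 at 0.29 and 0.65, DUSP1 at −0.068 and 0.030, KLF9 at −0.26 and 0.23, and CEBPD at −0.17 and −0.28. Luminal prostate markers, 6 measured, had medians of 0.27 in MDVR and 0.033 in AbiR. Besides KLK3 and HOXB13, ACP3 was at 0.64 and 0.85, KRT8 at 0.32 and 0.30, KRT18 at −0.10 and −0.10, and FOLH1 at 0.21 and −0.13. Markers of basal prostate (2 measured), neuroendocrine (4) and fibroblast cells (4) lay between −0.35 and 0.42 in MDVR and between −0.40 and 0.44 in AbiR, and their part in the results was not tested.

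**Figure D4:**
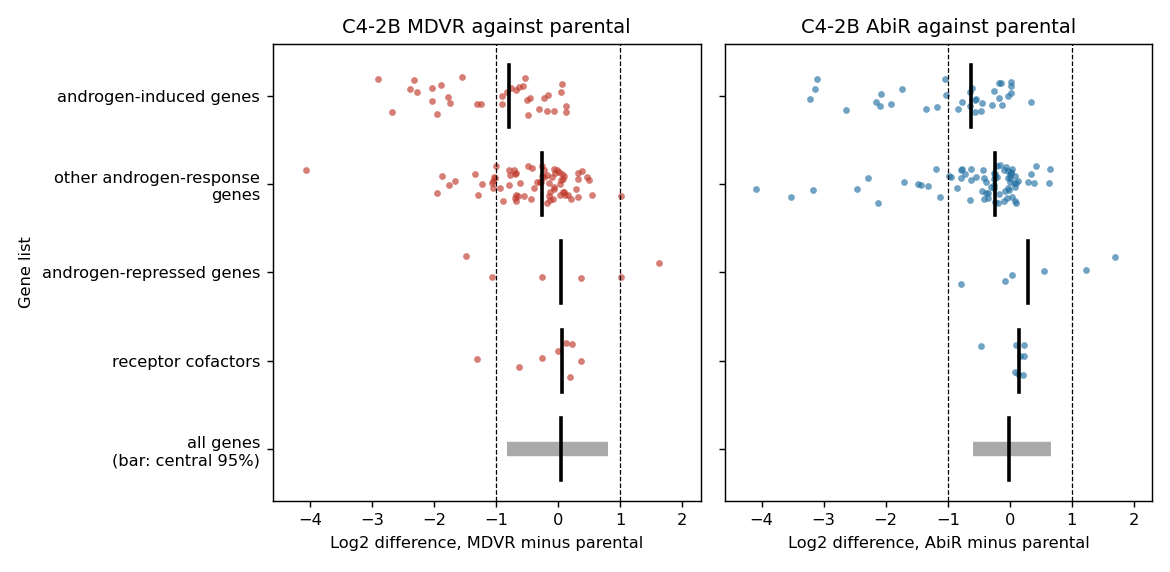
Log2 differences from the parental array (x axes) for C4-2B MDVR (left) and C4-2B AbiR (right), with each point 1 gene of a list (y axis), black bars at list medians, grey bars over the central range of all genes and dashed lines at 2-fold. Receptor cofactors are pioneer factors, coactivators and NR3C1. The medians of androgen-induced genes lie at −0.78 and −0.63, those of other androgen-response genes at −0.25, and those of all genes at 0.044 and −0.011.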

How the data were processed

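Total RNA of 3 lines was measured on 3 Affymetrix arrays. The authors deposited log2 values of 54675 probe sets, made with RMA according to the submitters' processing notes (its version is not given in the sources used here), and centred for each probe set. The values of 100% of probe sets could come from a median of 4 arrays set to 0 (tolerance 2e-06). In 53.4% of probe sets, 2 of the 3 arrays had equal and opposite values. A median of only these 3 arrays would instead have put the middle value at 0. The centring thus appears to have used a further array, not analysed here. Gene names came from the platform annotation, with gene IDs matched to RefSeq (99.9% of 41097 probe sets with 1 gene). A gene was given the mean of its probe sets annotated to it alone. Each resistant line was set against parental, and MDVR against AbiR, as log2 differences, and genes past 2-fold were counted, with Python 3.11.15, pandas 2.3.3 and NumPy 2.4.6. With 1 array per line there was no test, and the number of arrays limits the precision. The steps were tested on simulated data in which all probe sets of a gene changed alike, so disagreement between probe sets was not covered. All members are named. Members, lists and alternatives were chosen with earlier results of these data known. The alternatives were another summary of probe sets, another centring of arrays, other sets of probe sets, another fold, and agreement of the probe sets.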

Additional observations from a re-analysis of the deposited data

Results flagged for a closer look

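STEAP2 was the member whose differences from the parental array had opposite signs in the resistant lines, each beyond the SD of the spiked controls. Its single probe set was at −0.90 in C4-2B MDVR and at 0.35 in C4-2B AbiR. The difference between the lines was not tested, since each had 1 array.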

How the results depend on the processing

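No member at least 2-fold lower in MDVR or AbiR changed sign under any alternative. The genes that turned sign against parental under 1 of them lay near 0, namely EAF2, TSC22D1, MAF and ORM1 in MDVR and STEAP4, LIFR, NDRG1, STEAP1 and CHRNA2 in AbiR. Taking the single probe set with the widest range for each gene moved the median in MDVR to −1.27 and in AbiR to −1.16, with 21 and 18 genes at least 2-fold lower. In MDVR minus AbiR the same setting gave 7 genes at least 2-fold lower and a median of −0.018, and C1orf116 was no longer 2-fold higher. It favours large differences by construction, and 3.90%, 1.42% and 3.16% of all genes were then 2-fold lower in the 3 comparisons. At 1.5-fold, 8 members were lower in MDVR minus AbiR. Another alternative left out probe sets with the suffixes _s and _x, which mark possible cross-hybridization, and those with the suffix _a. There, 1 member was 2-fold higher in MDVR minus AbiR, and ADAMTS1, MYBPC1, SPDEF and NDRG1 had no value. Then ZBTB10 was also no longer 2-fold lower in AbiR (−0.61). With the median of probe sets taken on each array, BMPR1B was no longer 2-fold lower in either line. Centring arrays on their median or on hybridization controls, asking that all probe sets differ in 1 direction, or counting jointly annotated probe sets kept each member on its side of 2-fold, and the joint probe sets added HERC3 in AbiR. With 1 array per line, no difference, of any size, could be set against variation between cultures, and no replicate could be left out.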
